A study of Mus musculus with 15 samples.

Results

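The expression of 10 genes of the Nrf2 antioxidant response (Nfe2l2, Nqo1, Gclc, Gclm, Hmox1, Txnrd1, Srxn1, Slc7a11, Gsr and G6pdx) was measured by RNA sequencing in ileal tissue of 15 mice. These genes were chosen by symbol, as genes known for their place in the response, from 17752 genes listed in any mouse. All 10 were among the 14386 genes that passed the filter on low counts and were tested. The mice were 8-week-old female C57BL/6 animals according to the labels (C57BL/6JOlaHsd in the methods, which give a younger age on arrival), and the 3 groups of 5 received water, low PAC or high PAC. Proanthocyanidins (PAC) are polymers of flavan-3-ols, and both preparations were Sephadex fractions of grape pomace PAC given by gavage at 200 mg/kg every 2 days over 10 days. They differed in their mean degree of polymerization, and while the labels call the second preparation high, the methods of the study describe a low and a medium fraction for its mice. All mice, controls included, were fed a purified diet, and 1 piece of ileum per mouse gave 1 library, so that differences between mice include where along the ileum the piece was taken.

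Nrf2, the protein encoded by Nfe2l2, is a transcription factor that is held in the cytoplasm and marked for degradation by Keap1 under resting conditions. Oxidants and electrophiles modify Keap1, Nrf2 then accumulates in the nucleus, pairs with small Maf proteins and binds antioxidant response elements near genes for glutathione synthesis, the thioredoxin system, NADPH supply and detoxification. Because the control of Nrf2 acts largely on the protein, its mRNA level alone does not report its activity, and plant polyphenols are commonly studied as activators of this pathway in the gut. Neither Nrf2 protein nor its binding to DNA was measured in these mice.

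Markers of distal ileum were present in every library, with Fabp6, an ileal bile acid binding protein, at an FPKM (fragments scaled to gene length and to the mapped fragments of the library) of 4196 to 10620 and Slc10a2, the ileal bile acid transporter, at 94.8 to 350.1. Each library held 15963086 to 17903886 expected counts in all. High PAC mouse 3 stood apart from the rest, as it had the lowest summed FPKM of 10 enterocyte markers of the 15 mice (9511) and the highest sums for goblet, Paneth, tuft, crypt proliferation, distal ileum, T cell, macrophage and erythrocyte markers. Summed FPKM of 9 B cell markers was 72.3 to 239 in 7 mice (3 water, 2 low PAC and 2 high PAC) and 5.85 to 9.03 in the other 8. All 10 enterocyte markers had a lower fitted level with high PAC than with water, 9 of them at an unadjusted p under 0.05 (edgeR). All 10 were also lower with low PAC, 4 of them at that threshold. Of all genes tested, 10.4% were lower and 4.37% higher at that threshold with high PAC, and 2.21% and 1.4% with low PAC. In fitted level, 49.5% of all genes were lower with high PAC and 54.5% with low PAC. Other lists differed, with 8 of 8 smooth muscle and 5 of 5 mesothelium markers tested higher with either fraction. Higher with high PAC were 7 of 7 crypt proliferation markers (2 at an unadjusted p under 0.05), 4 of 4 tuft cell and 5 of 5 erythrocyte markers tested (1 at that threshold). So were 7 of 9 B cell, 5 of 7 goblet and 4 of 6 Paneth cell markers. Lower with high PAC were 7 of 9 macrophage (1 at that threshold), 5 of 6 T cell and 10 of 13 clock markers. With low PAC, 9 of 9 B cell, 6 of 6 T cell and 6 of 9 macrophage markers were lower, and 6 of 7 goblet and 6 of 7 crypt proliferation markers higher. Of the lists for position along the gut, 2 of 6 distal and 2 of 6 proximal markers tested were higher with high PAC and 4 of each lower, 1 of them (proximal) at an unadjusted p under 0.05, and with low PAC 4 of 6 distal markers were higher and 5 of 6 proximal markers lower. The widest gaps in the proximal list were those of Gata4, at mean FPKM of 7.09, 2.76 and 1.33 in water, low PAC and high PAC, and Lct, at 56.3, 27.7 and 17.3, while Fabp1 was at 212, 199 and 307. Enterocyte summed FPKM was 13631 to 17954 with water, 11229 to 15817 with low PAC and 9511 to 15061 with high PAC, and no marker of the list was at 0. In bulk tissue, fewer cells of a type and less RNA per cell cannot be told apart. The part of these differences in the values of the Nrf2 genes was not tested.

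Promoter sequences were available in the RefSeq table (GRCm38.p6; 250 bases before to 50 after each start) for 7 of the 10 genes. The core of the antioxidant response element, TGACNNNGC on either strand, was found in the window of 5 of these 7 genes, namely Nfe2l2, Srxn1, Gclm, Txnrd1 and G6pdx. This was 5 of the 9 windows of the 7 genes, while 12.4% of all 32851 windows held it. An AP-1 motif, TGANTCA, was found for Srxn1 (7.81% of all windows), and an amino acid response element, TGATGNAA, which is the type of site bound by ATF4, for Slc7a11 (3.97% of all windows). None of these matches overlapped a match to another of the motifs. The stretches around the matches are shown to set the antioxidant response element core of Nfe2l2, Gclm and Txnrd1 beside the AP-1 motifs of Srxn1 and the amino acid response element of Slc7a11. Letters in capitals are the matches, and each stretch is written 5′ to 3′ on the strand of its gene. Nfe2l2 is shown from chr2:75704855-75704913 (minus strand), with the core at -240 relative to the start. Gclm is shown from chr3:122245383-122245471 (plus strand), with the core on the opposite strand at -134, and Txnrd1 from chr10:82859074-82859162 (plus strand), where 1 of its 3 windows held the core, at -92 from that window's start. Srxn1 is shown from chr2:152105382-152105523 (plus strand), with both AP-1 matches, at -102 and -45. The match at -45 is followed by gc, so that TGAGTCAgc differs from the searched core TGACNNNGC only by G in place of C. Forms of the element with TGAG were not searched. The match of Srxn1 to the searched core lay 28 bases past the start, outside the stretch. Slc7a11 is shown from chr3:50443614-50443719 (minus strand), with matches on both strands at -66 and -47. A match of letters is not a measured site, and the core of G6pdx lay at -57.
Nfe2l2: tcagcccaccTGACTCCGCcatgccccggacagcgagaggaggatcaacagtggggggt
Gclm: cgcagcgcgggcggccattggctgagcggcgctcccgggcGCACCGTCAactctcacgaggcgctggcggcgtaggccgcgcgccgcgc
Txnrd1: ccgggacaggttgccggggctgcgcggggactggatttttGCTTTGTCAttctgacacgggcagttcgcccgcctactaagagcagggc
Srxn1: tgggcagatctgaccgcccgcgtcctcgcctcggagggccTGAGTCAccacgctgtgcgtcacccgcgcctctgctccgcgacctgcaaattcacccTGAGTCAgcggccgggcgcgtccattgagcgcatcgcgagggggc
Slc7a11: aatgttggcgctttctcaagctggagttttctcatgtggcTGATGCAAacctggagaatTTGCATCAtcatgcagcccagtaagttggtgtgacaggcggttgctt

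Levels differed widely between the genes in ileum of the water mice. FPKM is scaled to gene length, so levels of different genes may be compared on it. Srxn1, which encodes the sulfiredoxin that repairs over-oxidized peroxiredoxins, had the highest level at 109.7 ± 8.36 FPKM (SD, n = 5). Nfe2l2 followed at 88.1 ± 4.72, then thioredoxin reductase 1 (Txnrd1) at 79.4 ± 2.66 and glutathione reductase (Gsr) at 73.6 ± 9.27. These 4 genes lay between the 93.0th and 95.4th percentile of all genes tested. A middle group held Gclm at 33.0 ± 1.08, G6pdx at 31.8 ± 3.65 and Gclc at 25.2 ± 1.57 FPKM. Nqo1 was near the middle of all genes tested at 8.24 ± 0.77 FPKM, on the 52.5th percentile. Haem oxygenase 1 (Hmox1) was low at 2.28 ± 0.65 FPKM (24.9th percentile) and the cystine transporter gene Slc7a11 lowest at 0.77 ± 0.33 FPKM (11.8th percentile). Neighbours in this order whose water mice overlapped were Nfe2l2 and Txnrd1, Txnrd1 and Gsr, and Gclm and G6pdx. The order of the 10 was kept with both PAC fractions except for Gclm and G6pdx, since G6pdx was above Gclm in 4 of 5 mice of each PAC group and in 2 of 5 water mice.

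**Figure D1:**
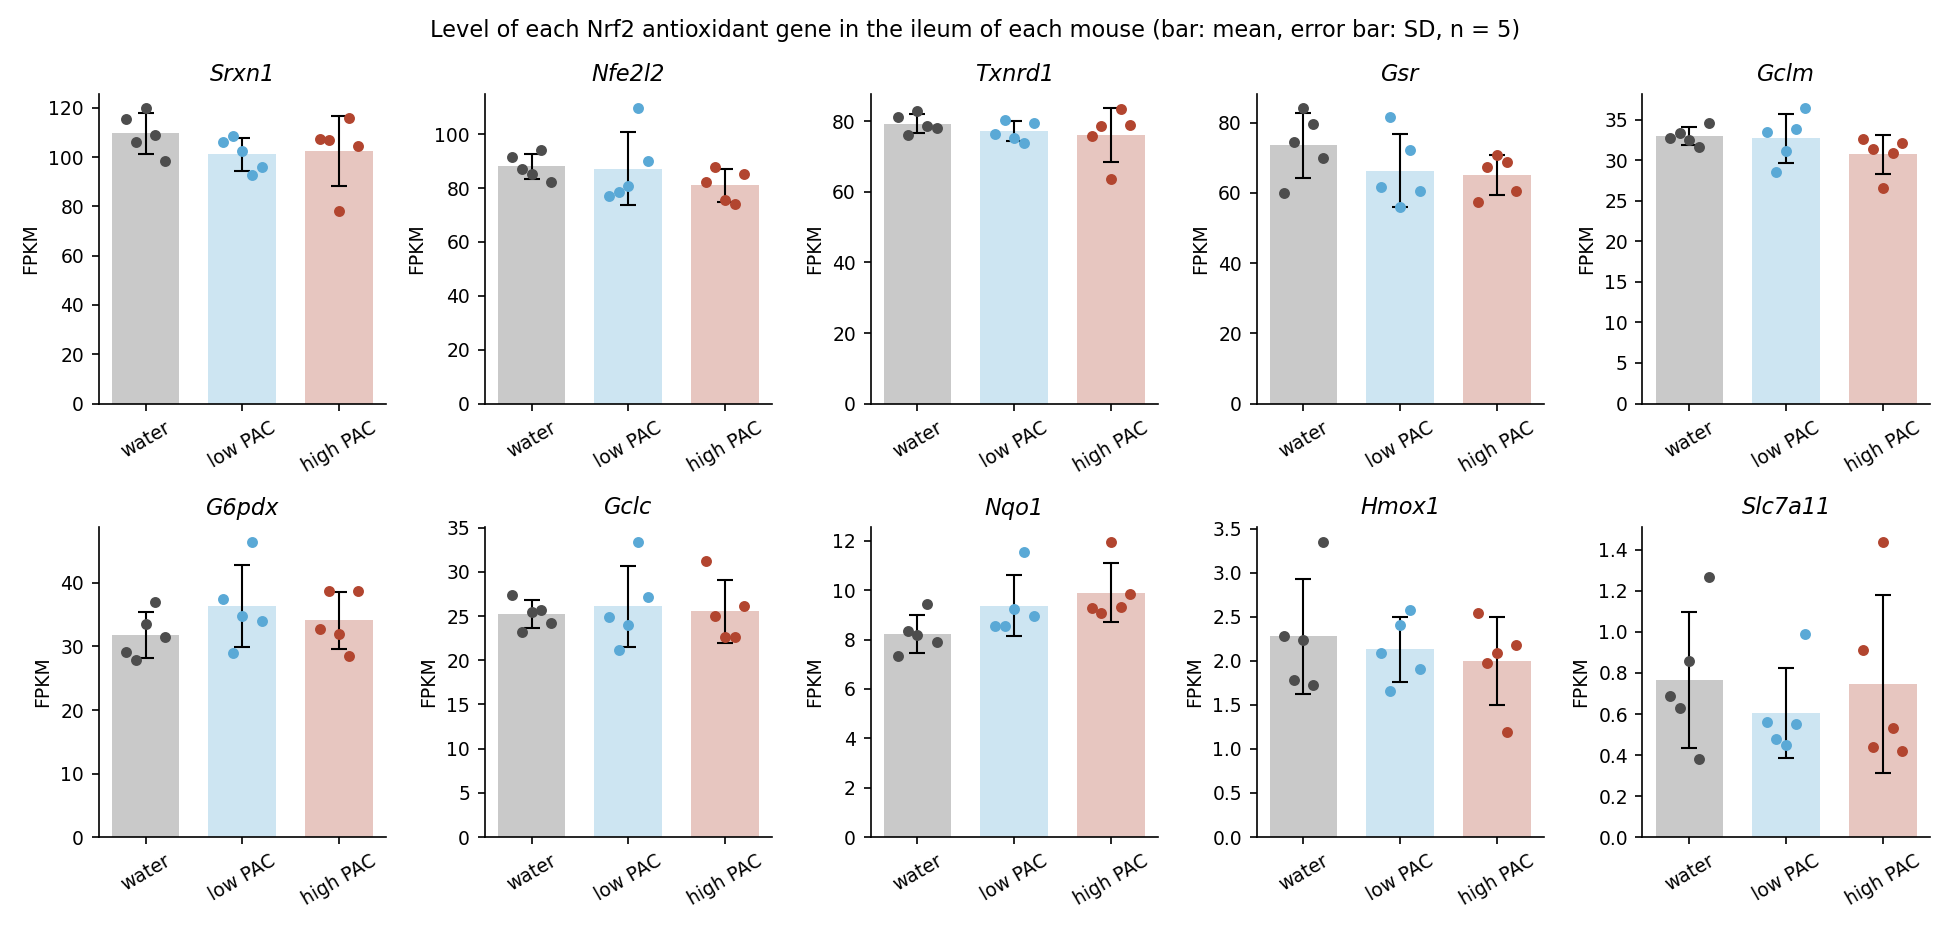
FPKM of each gene (vertical axes, starting at 0) in the 5 mice given water, the 5 given low PAC and the 5 given high PAC, with 1 point per mouse, bars for the group mean and error bars for the SD. The 3 groups overlap for each of the 10 genes, and the single high or low mice of Gclm, Srxn1, Txnrd1, Nqo1 and Slc7a11 are visible as points away from their group.

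Stability within groups also differed. The SD of log2(FPKM + 0.1) within groups was 0.096 for Txnrd1 and 0.11 for Gclm, which put them on the 7.42nd and 10.9th percentile of all genes tested, so these genes were among the least variable of the tissue. It was 0.34 for Hmox1 (81.7th percentile) and 0.55 for Slc7a11 (93.8th percentile), with expected counts of only 33 to 91 for Hmox1 and 63 to 228 for Slc7a11. The remaining 6 genes lay between the 28.5th and 53.7th percentile.

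The comparison of each PAC fraction with water asks whether oral PAC altered expression of these genes in the ileum, and the comparison of the fractions with each other asks whether polymer size mattered. In none of the 3 comparisons did a gene of the 10 pass an adjusted p under 0.05 (edgeR quasi-likelihood test, Benjamini-Hochberg adjustment over all genes tested), and DESeq2 and limma also called 0, although DESeq2 gave no adjusted p to Nqo1, Hmox1 and Slc7a11 in the comparison of high PAC with water. With high PAC against water, 2 of the 14386 genes tested were called (0.0139%). Of the 10 genes, 8 had a lower and 2 a higher fitted level than with water, and the fold changes lay between 0.821 and 1.12. The median log2 fold change was -0.17 against 0.00 over all genes tested. These medians were -0.09 and 0.01 without high PAC mouse 3, and -0.09 and 0.09 with limma on log2(FPKM + 0.1). At an unadjusted p under 0.05, 3 of the 10 were lower (Nfe2l2, Gclm and Gsr) and 0 higher, where 10.4% of all genes tested were lower and 4.37% higher. Without high PAC mouse 3, only Gsr of the 10 passed, as lower. Over all genes, 759 were then higher and 813 lower, against 628 and 1500 with all mice. The 95% interval of the fold change lay within 2-fold in either direction for all 10 genes and within 1.5-fold for 8, the exceptions being Hmox1 and Slc7a11. For each of the 10, the mice of both groups overlapped, and the share of all genes tested that did so is not given here. Which genes pass that threshold depends on how libraries are scaled, as upper-quartile in place of TMM normalization turned the genes with an unadjusted p under 0.05 from 628 higher and 1500 lower to 1505 higher and 816 lower, and of the 10 then left Nqo1 as higher and Gclm as lower, while the fitted levels of the 10 were still 8 lower and 2 higher. With limma on log2(FPKM + 0.1) only Nqo1 passed, as higher, and the log2 fold changes of Nfe2l2, Gclm and Gsr were -0.12, -0.11 and -0.17 (unadjusted p = 0.189, 0.155 and 0.129).

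**Figure D2:**
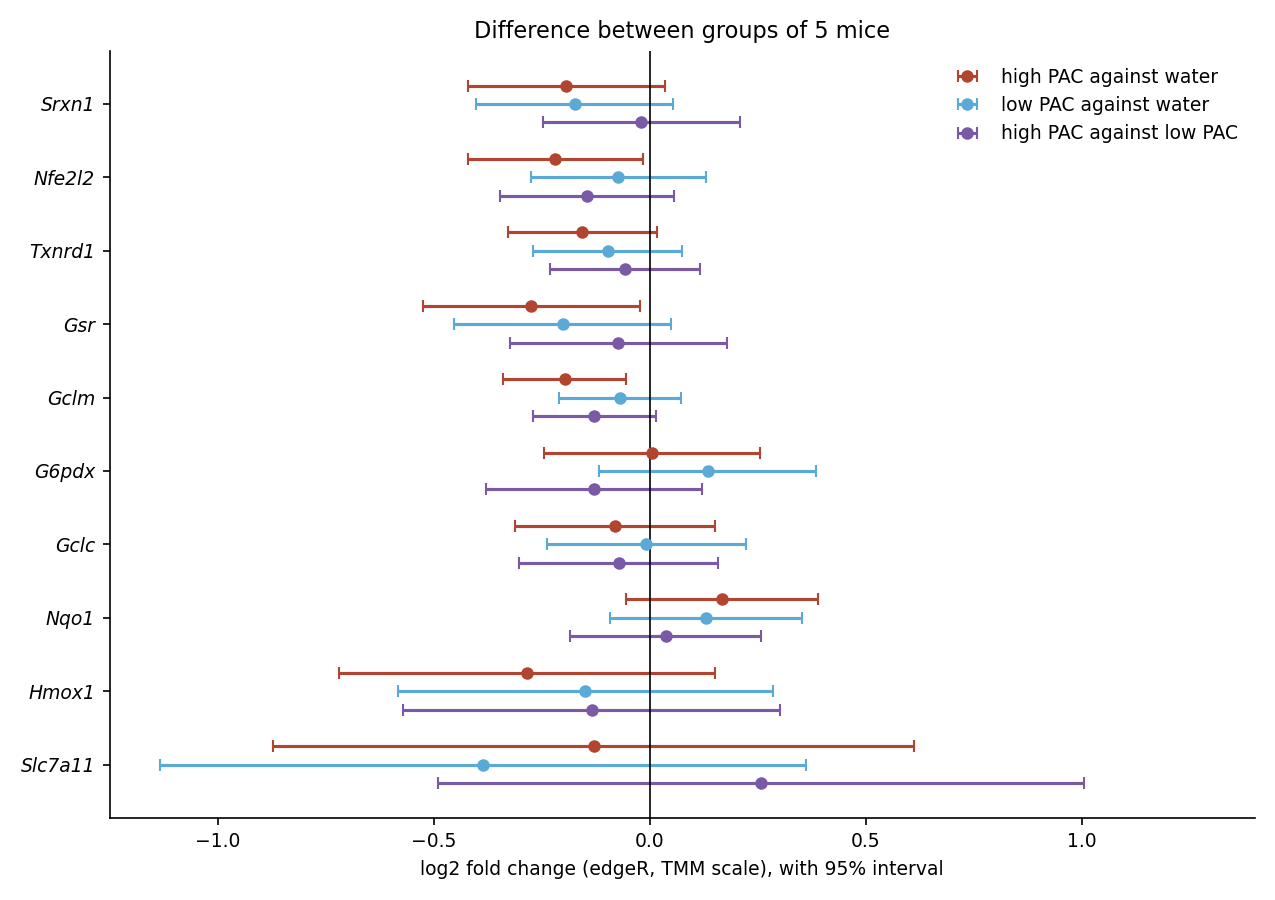
Log2 fold change of each gene on the horizontal axis, with its 95% interval, for high PAC against water, low PAC against water and high PAC against low PAC (edgeR on expected counts of 15 mice, TMM normalization). The largest difference is -0.39, and the widest intervals are those of Slc7a11 and Hmox1, which had the fewest counts.

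Nfe2l2 (gene 18024; GRCm38 chromosome 2, 75675513 to 75704641, minus strand) encodes the regulator itself. Its FPKM in the 5 water mice was 91.44, 87.16, 85.33, 94.16 and 82.37. With low PAC it was 76.93, 78.43, 80.76, 109.62 and 90.20, and with high PAC 82.29, 87.79, 75.47, 74.11 and 85.25. Of the high PAC mice, 3 of 5 lay below the lowest water mouse and the other 2 inside the water range, while low PAC mouse 4 was above every other mouse. Nfe2l2 had a log2 fold change with high PAC against water of -0.22 (SE 0.095, edgeR adjusted p = 0.305, unadjusted p = 0.0358; exact permutation p = 0.0873). Against water, the low PAC value was -0.07 (SE 0.095, edgeR adjusted p = 0.976), and -0.17 without low PAC mouse 4.

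Glutathione is made from cystine taken up by the Slc7a11 transporter, by glutamate-cysteine ligase, which joins a catalytic (Gclc) and a modifier (Gclm) subunit, and its oxidized form is returned by Gsr. Gclm (gene 14630; chromosome 3, 122245557 to 122270732, plus strand) was at 32.71, 33.37, 32.54, 31.69 and 34.60 FPKM with water. It was at 33.53, 28.51, 31.19, 33.80 and 36.41 with low PAC and at 32.58, 31.40, 26.62, 30.94 and 32.08 with high PAC. Of the high PAC mice, 3 of 5 lay below the lowest water mouse, by a wide margin only mouse 3, and the groups overlapped. The log2 fold change with high PAC against water was -0.20 (SE 0.067, edgeR adjusted p = 0.24, unadjusted p = 0.00955), a fold change of 0.872 with a 95% interval of 0.791 to 0.962, and the exact permutation p on FPKM was 0.0476. Without high PAC mouse 3 the log2 fold change was -0.11 (unadjusted p = 0.0604). An antisense transcript and a pseudogene overlap Gclm, and as the strand setting of the counting is not given in the sources used here, reads from antisense transcription cannot be told apart.

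Gclc (gene 14629; chromosome 9, 77754535 to 77794485, plus strand), the catalytic subunit, was at 23.21 to 27.39 FPKM with water, 21.19 to 33.41 with low PAC and 22.58 to 31.24 with high PAC. The water mice lay inside the range of both PAC groups, and the group means were 25.2, 26.1 and 25.5 FPKM. Its log2 fold change with high PAC against water was -0.08 (SE 0.11, edgeR adjusted p = 0.736) and turned to 0.01 with limma on FPKM. Both subunits of the ligase were thus within 1.5-fold of water in both PAC groups by their 95% intervals.

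Gsr (gene 14782; chromosome 8, 33652523 to 33698163, plus strand) was at 60.01, 74.36, 84.06, 79.52 and 69.91 FPKM with water. Its values were 61.66, 81.49, 55.94, 72.06 and 60.52 with low PAC and 57.43, 67.39, 70.69, 68.86 and 60.44 with high PAC. The highest value was in the water group, but 4 of 5 high PAC mice lay inside the water range. The log2 fold change was -0.27 with high PAC (SE 0.12, edgeR adjusted p = 0.302, unadjusted p = 0.0345; exact permutation p = 0.119) and -0.20 with low PAC (SE 0.12, edgeR adjusted p = 0.976), the latter -0.30 without low PAC mouse 2.

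Slc7a11 (gene 26570; chromosome 3, 49892526 to 50443614, minus strand), which is also a target of the amino acid response factor ATF4, was at 0.69, 0.63, 0.86, 0.38 and 1.27 FPKM with water. With low PAC it was at 0.56, 0.48, 0.45, 0.55 and 0.99, and with high PAC at 0.91, 0.44, 1.44, 0.53 and 0.42. Each group held both low and high mice, and the highest of the 15 was 3.79 times the lowest. The log2 fold change of Slc7a11 was -0.13 with high PAC (95% interval of the fold change 0.546 to 1.53), and -0.47 to 0.10 when single mice were left out. With low PAC it was -0.39 (interval 0.456 to 1.28), and -0.16 without water mouse 5. These data thus leave room for differences of over 1.5-fold in this gene. Levels of Slc7a11 varied with immune cell markers (Pearson r over the 15 mice after subtraction of group means 0.81 for B cell and 0.81 for T cell markers, 0.59 for macrophage markers) and with crypt proliferation markers (0.61). Other genes of the 10 also varied with other lists by the same measure. Srxn1 did so as closely with crypt proliferation (-0.83). Less close were Txnrd1 with macrophage (-0.73) and goblet (-0.71), Gclm with enterocyte (0.68) and goblet (-0.67), and Gclc and Nfe2l2 with clock genes (0.68 and 0.64). High PAC mouse 3 and low PAC mouse 4 are included in these values. The 6 mice highest in Slc7a11, at 0.69 to 1.44 FPKM, all belonged to the 7 with summed B cell markers of 72.3 to 239 FPKM, and the highest value among the other mice was 0.63. The remaining mouse of the 7, low PAC mouse 3, had a B cell sum of 72.3 and Slc7a11 at 0.45. B cell sums ranged from 7.31 to 160 with water, from 7.74 to 80.3 with low PAC and from 5.85 to 239 with high PAC, with none of the 9 markers at 0 in all mice, while T cell sums (6 markers) were 22.4 to 51.1, 24.6 to 35.7 and 19.5 to 60.2. The part of these cells in the Slc7a11 values was not tested. An antisense transcript and pseudogenes overlap Slc7a11, and their part in its low counts was not tested.

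**Figure D3:**
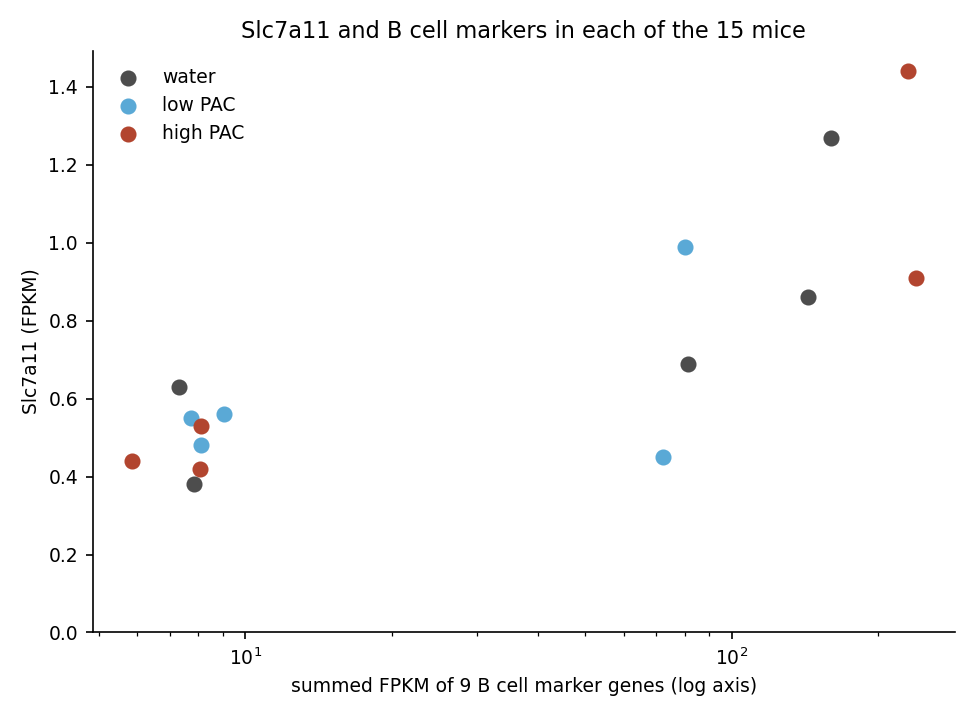
Slc7a11 level (vertical axis, FPKM) against the summed FPKM of 9 B cell markers (horizontal log axis) in each of the 15 mice, coloured by group. The 8 mice with B cell sums under 10 have Slc7a11 at 0.38 to 0.63 FPKM, and 6 of the 7 with sums over 70 lie at 0.69 to 1.44, with mice of all 3 groups on both sides.

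Txnrd1 and Srxn1 serve the thioredoxin system, which reduces oxidized protein thiols and peroxiredoxins. Txnrd1 (gene 50493; chromosome 10, 82833951 to 82897712, plus strand) was at 81.13, 76.04, 82.87, 78.67 and 78.22 FPKM with water. Its level was 76.49, 80.53, 75.43, 74.02 and 79.66 with low PAC and 75.78, 78.77, 63.64, 83.65 and 79.09 with high PAC. Apart from high PAC mouse 3, the 15 libraries spanned 74.02 to 83.65 FPKM. The log2 fold change with high PAC against water was -0.16 (SE 0.082, edgeR adjusted p = 0.38), and without that mouse -0.06. Eid3 overlaps Txnrd1 on the same strand, with 2 to 13 expected counts per mouse. Srxn1 (gene 76650; chromosome 2, 152105516 to 152111376, plus strand) was at 115.53, 106.03, 119.80, 108.82 and 98.33 FPKM with water. The PAC groups were at 106.22, 108.47, 102.26, 92.80 and 96.01 (low) and at 107.44, 107.02, 78.26, 115.86 and 104.31 (high). Here too high PAC mouse 3 was the lowest of all, and the other 4 high PAC mice lay inside the water range. For Srxn1 the log2 fold change with high PAC was -0.19 (SE 0.11, edgeR adjusted p = 0.399), and -0.07 without that mouse. With low PAC it was -0.17 (SE 0.11, edgeR adjusted p = 0.976).

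Nqo1 (gene 18104; chromosome 8, 107388225 to 107403206, minus strand), the quinone reductase most often used as a readout of Nrf2, was at 7.33, 8.35, 8.19, 9.43 and 7.89 FPKM with water. It was at 8.56, 8.56, 9.25, 11.54 and 8.95 with low PAC and at 9.29, 9.09, 11.96, 9.30 and 9.84 with high PAC. All 10 PAC mice lay above 4 of the 5 water mice, but only 2 high PAC mice and 1 low PAC mouse exceeded the highest water mouse. The log2 fold change of Nqo1 was 0.17 with high PAC (SE 0.10, edgeR adjusted p = 0.446; fold change 1.12, 95% interval 0.963 to 1.31) and 0.13 with low PAC (SE 0.10, edgeR adjusted p = 0.976), the latter 0.05 without low PAC mouse 4. On FPKM, whose scaling puts PAC mice higher for most genes, the exact permutation p was 0.0317 with high PAC and 0.0952 with low PAC, with 0.00794 as the smallest value 5 against 5 mice can give. Limma on log2(FPKM + 0.1) gave a difference of 0.26 with high PAC (unadjusted p = 0.0199, adjusted p = 0.209), beside a median of 0.09 over all genes on that scale.

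Hmox1 (gene 15368; chromosome 8, 75093621 to 75100589, plus strand) opens the haem ring and is abundant in macrophages that take up red cells. Its FPKM was 1.73 to 3.35 with water, 1.66 to 2.58 with low PAC and 1.19 to 2.54 with high PAC. The highest mouse was in the water group and the lowest in the high PAC group, with the other mice intermingled. Its log2 fold change with high PAC against water was -0.28 (SE 0.21, edgeR adjusted p = 0.504), and -0.13 without water mouse 5 and -0.15 without high PAC mouse 4. Summed macrophage markers (10 genes, with Vsig4 near 0) were at 113 to 153 FPKM with water, 107 to 140 with low PAC and 111 to 184 with high PAC, and their part in the Hmox1 values was not tested.

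G6pdx (gene 14381; chromosome X, 74409483 to 74429194, minus strand) encodes the enzyme that opens the pentose phosphate pathway and supplies NADPH to Gsr and Txnrd1. Its FPKM was 27.82 to 36.99 with water, 29.03 to 46.49 with low PAC and 28.48 to 38.79 with high PAC. The groups overlapped, and 2 mice of each PAC group lay above the highest water mouse. For G6pdx the log2 fold change was 0.01 with high PAC (SE 0.12, edgeR adjusted p = 0.987) and 0.13 with low PAC (SE 0.12, edgeR adjusted p = 0.976), the latter 0.03 without low PAC mouse 4. Ikbkg overlaps it on the opposite strand with 578 to 688 expected counts per mouse. As the strand setting of the counting is not given, it is not known whether reads of these genes were told apart where they overlap.

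With low PAC, 0 of 10 genes passed an adjusted or an unadjusted p under 0.05 against water in edgeR, DESeq2 or limma. Over all genes tested the edgeR share was 0% adjusted, and unadjusted 1.4% higher and 2.21% lower. The median log2 fold change of the 10 was -0.09 against -0.01 over all genes, and 8 were lower and 2 (Nqo1 and G6pdx) higher. The interval of the fold change lay within 1.5-fold for 9 of 10, Slc7a11 being the exception. Both PAC comparisons share the 5 water mice, so that a high or low water mouse moves both in the same direction.

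High PAC and low PAC were given at the same dose and times. Between these fractions, which differ in mean degree of polymerization, 0 of 10 genes passed an adjusted or unadjusted p under 0.05 (edgeR, and also DESeq2 and limma), where over all genes tested the edgeR share was 0% adjusted, and unadjusted 1.84% higher and 2.05% lower with high PAC. The closest to that threshold was Gclm, with a log2 fold change of -0.13 (SE 0.067, edgeR adjusted p = 0.896, unadjusted p = 0.0737), followed by Nfe2l2 with -0.15 (SE 0.095, edgeR adjusted p = 0.896). Without high PAC mouse 3 the value of Gclm was -0.06, and without low PAC mouse 4 that of Nfe2l2 was -0.05. For 9 of the 10 genes the interval of the fold change lay within 1.5-fold, and for Slc7a11 it was 0.711 to 2.01. Differences inside these intervals are compatible with the data.

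Across mice, after subtraction of group means, the 10 genes did not vary as 1 block. Pearson r of log2(FPKM + 0.1) over the 15 mice, which share library scaling within a mouse, was positive for 24 of the 45 pairs and negative for 21, with a median of 0.02. Over all 15 mice the highest r was that of Txnrd1 and Srxn1 (0.88), and Nfe2l2 varied with Gclc (r = 0.78) and G6pdx (r = 0.71). Nqo1, in contrast, ran opposite to Srxn1 (r = -0.68) and Txnrd1 (r = -0.67). Single mice carried much of this. High PAC mouse 3 was the lowest of the 15 in Gclm, Txnrd1 and Srxn1 and the highest in Nqo1 and Slc7a11, and low PAC mouse 4 was the highest in Nfe2l2, Gclc and G6pdx. Without these 2 mice, r was 0.55 for Txnrd1 and Srxn1, 0.53 for Nfe2l2 and Gclc, 0.48 for Nfe2l2 and G6pdx, -0.23 for Nqo1 and Srxn1 and -0.24 for Nqo1 and Txnrd1. The highest r was then that of Gclm and Slc7a11 (0.65, against 0.04 over all mice), followed by Gclc and Gclm (0.58), and the lowest that of Gclc and Gsr (-0.64). Summed FPKM of 13 clock genes was lowest of the 15 in high PAC mouse 3 (119.5) and highest in low PAC mouse 4 (244.0). Nr1d1 had the highest level of that list (group means of 58.3 to 69.5 FPKM), and such a sum does not give the phase of the clock. The part of sampling time was not tested.

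**Figure D4:**
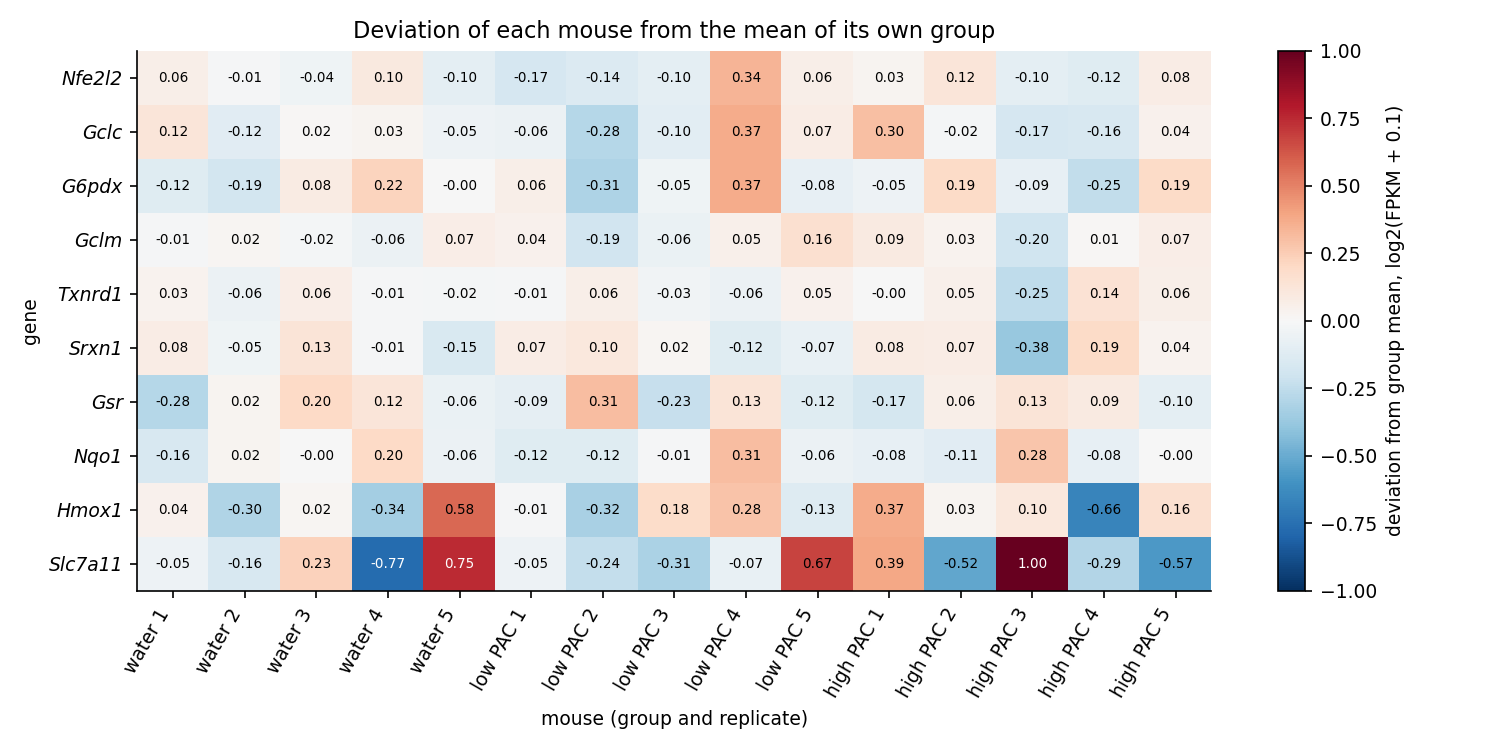
Deviation of each mouse (columns) from the mean of its own group in log2(FPKM + 0.1) for the 10 genes (rows), with red above and blue below the group mean. High PAC mouse 3 is low in Txnrd1, Srxn1 and Gclm and high in Nqo1 and Slc7a11, and low PAC mouse 4 is high in Nfe2l2, Gclc, G6pdx and Nqo1.

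The gene most like each of the 10 over the 15 mice, by the same r among 14385 other genes, was a different one in every case. It was Slc7a9, an amino acid transporter subunit of the brush border, for Srxn1 (r = 0.96, and 0.88 without the 2 mice named above), Pcsk5 for Txnrd1 (0.95, and 0.80) and Trim59 for Slc7a11 (0.95, and 0.94). Irs3 was most like G6pdx (0.91, and 0.97), Galm most like Gclc (0.91, and 0.82) and Lgals2 most like Nqo1 (0.91, and 0.64). For Hmox1 it was Flot1 (0.89, and 0.92), for Gclm Fam126b (0.89, and 0.87), for Nfe2l2 Mpp4 (0.87, and 0.76) and for Gsr Unc5cl (0.87, and 0.86). None of these was another of the 10 genes. Each r is the highest of 14385 values over 15 mice, so values this high may come from the selection alone. The r without the 2 mice is that of genes selected with these mice included. Irs3 and Mpp4 had mean levels of only 0.64 and 0.22 FPKM.

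Related pathways were examined through 8 lists with 122 genes, of which 120 were tested. In the comparison of high PAC with water 0 of the 120 were called (edgeR, smallest adjusted p 0.162), 8 were higher and 14 lower at an unadjusted p under 0.05 (6.67% and 11.7%, against 4.37% and 10.4% of all genes tested), and the median log2 fold change was 0.02. The counts for single lists below are at that threshold too, rest on few genes each and are to be read against those shares. Among 17 regulators and partners of Nrf2, 4 were lower and 2 higher at an unadjusted p under 0.05, where 10.4% and 4.37% of all genes were. The lower ones were the coactivators Ep300 (log2 fold change -0.36, unadjusted p = 0.000607, adjusted p = 0.162 in edgeR) and Crebbp (-0.43), the repressor Bach1 (-0.36), which competes with Nrf2 for its sites, and the kinase Gsk3b (-0.24), which marks Nrf2 for degradation. Ep300 was at 23.1 ± 0.97 FPKM with water and 19.1 ± 2.63 with high PAC (SD, n = 5), and all 5 high PAC mice lay below the lowest water mouse. The share of all genes tested with groups apart in this way is not given here. Bach1 was at 37.3 ± 1.62 and 31.1 ± 5.92 FPKM, with 4 of 5 below. The ubiquitin ligase subunit Btrc (0.20) and the phosphatase Pgam5 (0.21) were the higher ones. Sqstm1, an autophagy receptor that binds Keap1, was the most abundant of the list at 94.8 FPKM over all mice and differed by -0.04, followed by Dpp3, Bach1 and Cul3.

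In the list of glutathione synthesis and use, 1 of 20 genes was higher and 3 lower at an unadjusted p under 0.05 with high PAC against water, close to the shares over all genes. These were the peroxidase Gpx7 (log2 fold change 0.45), the transporter heavy chain Slc3a2 (-0.30), which pairs with Slc7a11, and the export pumps Abcc2 (-0.57) and Abcc3 (-0.37). The most abundant members, Mgst1, Glrx, Mgst3 and Gpx2 at 209 to 253 FPKM, differed by -0.15 to 0.11. Of 14 thioredoxin and peroxiredoxin genes, Txnrd3 (0.31) and Prdx4 (0.31) were higher and Sesn1 (-0.21) lower, while Prdx1 and Txn1, at 515 and 346 FPKM, were at -0.03 and 0.02, and Txnip and Prdx5 at -0.07 and -0.15. Among 11 genes of NADPH generation, Aldh1l1 was lower (-0.18), and the abundant Taldo1, Tkt, Idh1 and Pgd were at 0.19, 0.02, 0.06 and 0.02.

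In the list of haem and iron handling, whose 11 genes include the NAD salvage enzyme Nampt (-0.10), 2 were higher and 1 lower at an unadjusted p under 0.05, and 9 had a higher and 2 a lower fitted level. Erythrocyte markers, higher in 5 of 5 tested, summed to 30.9 to 77.1 FPKM with water and 57.1 to 184 with high PAC, and their part in these values was not tested. Blvra, the biliverdin reductase that acts after haem oxygenase, was at 11.7 ± 0.66 FPKM with water and 14.8 ± 1.23 with high PAC (SD, n = 5). All 5 high PAC mice lay above the highest water mouse (log2 fold change 0.24, SE 0.084, edgeR adjusted p = 0.25). For Blvra too, the share of all genes tested with groups apart in this way is not given here. The haem transporter Slc48a1 was at 0.21 and the haem exporter Flvcr1 at -0.38, and the ferritin genes Fth1 and Ftl1, at 1016 and 609 FPKM over all mice, were at 0.04 each, with Tfrc at 0.07 and Hmox2 at 0.09. Of 20 other detoxifying enzymes tested, Gsta4 was higher (0.40) and Ptgr1 lower (-0.44), while Gstp1, Aldh1a1, Aldh3a2 and Esd, the most abundant, were at 0.04, 0.27, -0.10 and 0.06. Of 13 enzymes that make or remove superoxide and hydrogen peroxide or nitric oxide, 3 were lower at that threshold, which were Duox2 (-1.24), Xdh (-0.54) and Nos2 (-1.29), and 7 had a lower and 6 a higher fitted level. Nos2 was at 58.3 ± 18.1 FPKM with water and 25.5 ± 23.4 with high PAC, with 4 of 5 high PAC mice below the lowest water mouse (edgeR adjusted p = 0.3). The removing enzymes Sod1 and Cat were at 0.22 and 0.00, and the oxidase subunit gene Cyba at -0.06. None of 14 genes of the ATF4 amino acid response passed an unadjusted p under 0.05, and Atf4 itself, at 102 FPKM over all mice, was at -0.03, with Eif4ebp1, Sars and Aars at 0.13, 0.07 and 0.01.

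**Figure D5:**
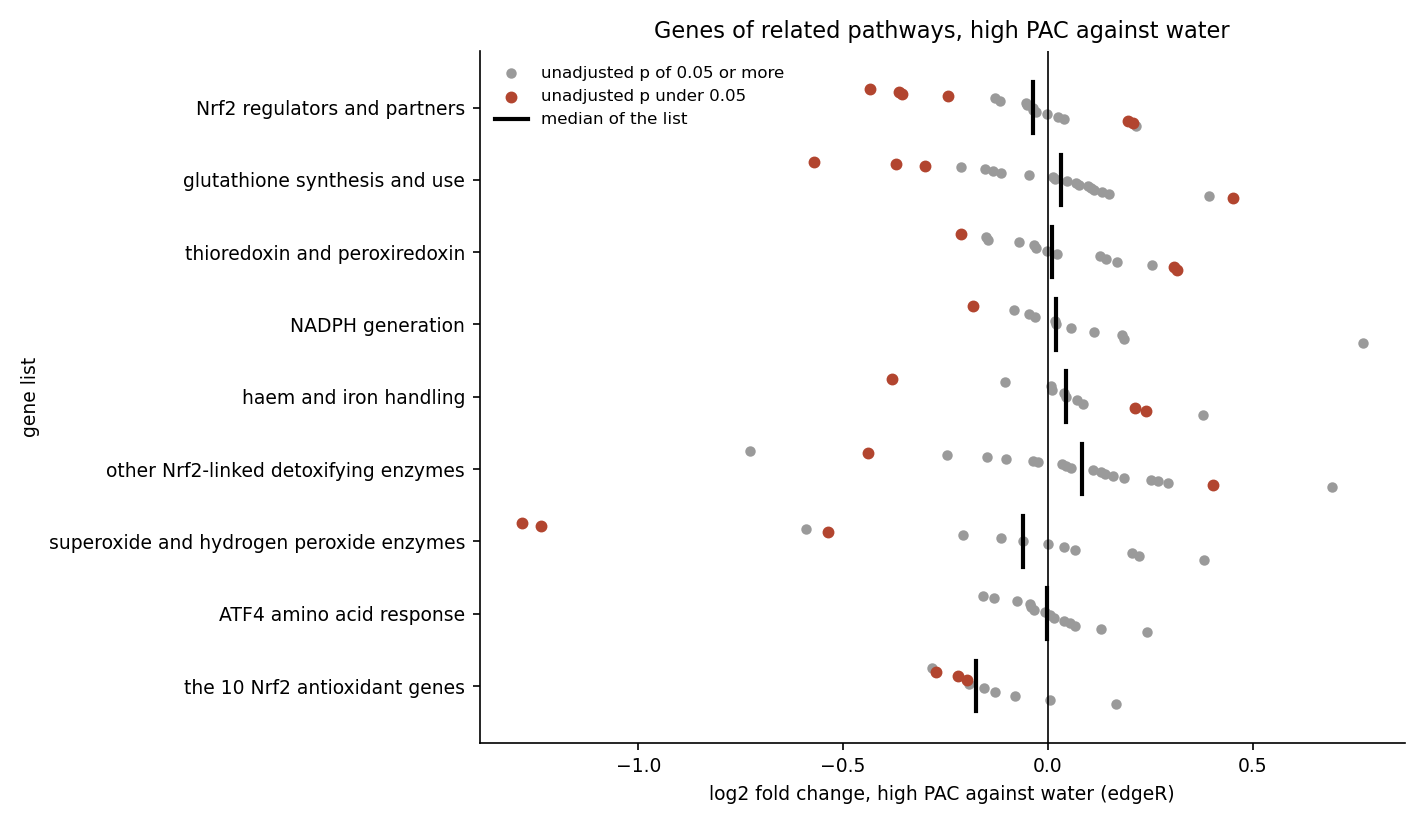
Log2 fold change with high PAC against water (horizontal axis, edgeR) for each gene of the 8 lists and for the 10 Nrf2 antioxidant genes, with 1 point per gene, red for an unadjusted p under 0.05 and a black line at the median of the list. The medians of the 8 lists lie between -0.06 and 0.08 and that of the 10 genes at -0.17, and the red points lie on both sides of 0 in 5 of the 8 lists.

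With low PAC against water, 0 of the 120 genes were called by edgeR, and 2 were higher and 3 lower at an unadjusted p under 0.05 (1.67% and 2.5%, against 1.4% and 2.21% of all genes tested). These were Gsta4 (log2 fold change 0.36) and Txnrd3 (0.25), and Ptgr1 (-0.43), Sesn1 (-0.27) and Slc3a2 (-0.26). Their values with high PAC, given above, rest on the same water mice. Between high PAC and low PAC 0 of 120 were called, and 3 were higher (Phgdh at 0.38, Prdx3 at 0.22 and Blvra at 0.21) and 2 lower (Crebbp at -0.41 and Ep300 at -0.27) at an unadjusted p under 0.05 (2.5% and 1.67%, against 1.84% and 2.05% of all genes tested).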

How the data were processed

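RNA from 1 piece of ileum per mouse was sequenced in 15 mice. The authors cleaned the reads and mapped them to the mouse genome (mm10; the methods name Bowtie2 and the submitters' processing notes HISAT), and the counting tool and its strand setting are not given in the sources used here. For each gene the authors deposited an expected count, which is an estimated and unscaled number of fragments. FPKM values were deposited by the authors too, with no gene listed under 0.01, and genes not listed were taken as 0. After rounding, the counts went into edgeR 4.0.16 (R 4.3.3; TMM, quasi-likelihood fit, filter on low counts by group) in 1 model of 15 mice, with Benjamini-Hochberg adjustment over 14386 genes at 0.05. Standard errors and 95% intervals were derived from its F values. Each of the 10 genes was further compared by an exact, two-sided permutation test on log2(FPKM + 0.1) in Python 3.11.15 (numpy 2.4.6, pandas 2.3.3, scipy 1.17.1). Alternatives used RLE and upper-quartile scaling, no filter, DESeq2 1.42.0, limma 3.58.1 on FPKM with pseudocounts of 0.1 and 1, a model of the compared groups only, a replicate block, and the omission of each mouse. The edgeR, DESeq2 and limma steps were tested on simulated data. Counts of this depth (15963086 to 17903886 per mouse) leave little counting error in most of the 10 genes, and more in Hmox1, which had 33 to 91 counts. The labels do not say whether mice shared cages. The 10 genes, the pathway lists and the marker lists were chosen with earlier results of these data known. Named genes were the 10, list genes with an unadjusted p under 0.05, the up to 4 most abundant genes of each list, and the gene most alike each of the 10; Nampt was named after its value was seen. Correlations without high PAC mouse 3 and low PAC mouse 4 were added after the data were seen. Gene positions are from GENCODE M21.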

Additional observations from a re-analysis of the deposited data

Results flagged for a closer look

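Of 30 groups of 5 mice (10 genes in 3 groups), 4 held a mouse whose gap to the nearest other mouse was large against the range of its group (Dixon's criterion at the 95% level), where chance gives about 1 in 20, or 1.5 of 30. Nqo1 was 11.54 FPKM in low PAC mouse 4, with the others of that group at 8.56 to 9.25. It was 11.96 in high PAC mouse 3, with the others at 9.09 to 9.84. Gclm was 26.62 FPKM in high PAC mouse 3, against 30.94 to 32.58 in the others. Slc7a11 was 0.99 FPKM in low PAC mouse 5, against 0.45 to 0.56 in the others.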

How the results depend on the processing

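The count of genes among the 10 with an adjusted p under 0.05 was 0 in all 3 comparisons under every alternative (in DESeq2 for high PAC against water over 7 of the 10, as Nqo1, Hmox1 and Slc7a11 had no adjusted p), with smallest adjusted p-values of 0.174 (high PAC against water, DESeq2), 0.836 (low PAC against water) and 0.671 (high against low PAC). Over all genes, high PAC against water gave 2 called genes in edgeR, 136 in DESeq2, 9 in limma with either pseudocount and 4 in the model of 2 groups, and 2 to 11 when single mice were left out (4 without water mouse 2, 11 without high PAC mouse 2). Low PAC against water gave 2 in DESeq2 and 0 to 1 without single mice (1 without low PAC mouse 2). Scaling moved directions, and genes with an unadjusted p under 0.05 for high PAC against water were 1505 higher and 816 lower with upper-quartile scaling, 894 and 1201 with RLE, 1100 and 1141 without the filter and 2269 and 528 with limma on log2(FPKM + 0.1). For low PAC they were 312 and 210 and for high against low PAC 509 and 167 with upper-quartile scaling. Of the 10 genes, Nqo1 then had a log2 fold change of 0.23 (unadjusted p = 0.0483). The 3 genes with an unadjusted p under 0.05 for high PAC became 1 to 4 when single mice were left out, with 1 left without water mouse 3 or 4 or high PAC mouse 1 or 3, and without high PAC mouse 3 the median of the 10 was -0.09. Without low PAC mouse 2, Gsr passed that threshold against water and Gclm between the fractions. Single mice also moved the counts over all genes at that threshold. For low PAC against water, 202 higher became 110 (without water mouse 3) to 365 (water mouse 4). The 318 lower became 183 (water mouse 3) to 482 (water mouse 2). Between the fractions, 264 higher became 130 (without high PAC mouse 3) to 475 (high PAC mouse 5). The 295 lower became 134 (high PAC mouse 3) to 576 (high PAC mouse 4). Of 240 fold changes under other settings 12 changed sign, all of under 0.04. Gclc with low PAC was 0.01 with RLE (0.0105), DESeq2 (0.0105) and 2 groups (0.0105), 0.0145 without the filter, 0.024 with upper-quartile scaling and 0.0377 and 0.0369 with limma. Gclc with high PAC was 0.0112 and 0.0111 with limma, and Srxn1 between the fractions 0.00884 with upper-quartile scaling and 0.0102 with limma. Without single mice, 23 of 300 changed sign. The ranges with high PAC against water were -0.0546 to 0.0669 for G6pdx, -0.152 to 0.00186 for Gclc and -0.467 to 0.102 for Slc7a11, and with low PAC -0.109 to 0.047 for Gclc and -0.233 to 0.00616 for Hmox1. Between the fractions they were -0.145 to 0.0279 for Gclc, -0.128 to 0.0296 for Gsr, -0.0206 to 0.118 for Nqo1, -0.102 to 0.496 for Slc7a11, -0.0769 to 0.0798 for Srxn1 and -0.103 to 0.0181 for Txnrd1. Without changing sign, leaving out single mice also moved the values of low PAC against water, to -0.165 to -0.024 for Nfe2l2, 0.0489 to 0.185 for Nqo1, 0.0331 to 0.195 for G6pdx -0.304 to -0.139 for Gsr and -0.627 to -0.155 for Slc7a11, that of Hmox1 with high PAC to -0.374 to -0.128, and those between the fractions to -0.195 to -0.0541 for Nfe2l2 and -0.161 to -0.0639 for Gclm. The cause was not tested. Mice with the same number varied together in some pairs only (3 of 5 with r over 0.1 in each comparison with water and 0 of 5 between the fractions, with r of -0.248 to 0.407 for high PAC and water, -0.282 to 0.434 for low PAC and water and -0.313 to 0.0738 for the fractions, and a mean of 0.127, 0.143 and -0.126 against -0.033, -0.036 and 0.033 for other numbers), so the numbers were not taken to pair them, and with the number as a replicate block 0 of the 10 and 2 of all genes were called for high PAC, and 0 and 0 in the other comparisons. Depth is lowest for Hmox1 (33 to 91 counts) and Slc7a11 (63 to 228).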
